A study of Mus musculus with 16 samples.

Results

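Cdkn1a, Mdm2, Ccng1, Eda2r, Perp, Sesn1, Sesn2, Trp53inp1, Phlda3 and Zmat3 are 10 genes that the transcription factor p53 is known to activate. Their levels are described here in normal mouse skin and in skin carcinomas of mice whose epidermis had lost p53. A probeset is the group of short probes that together give 1 value on the array, and it was taken for a gene when the array annotation gave that gene's symbol and no other. This gave 20 of the 45037 probesets tested and 10 of the 18193 genes. Sesn1 had 4 probesets, Ccng1 and Mdm2 had 3 each, Cdkn1a, Sesn2 and Trp53inp1 had 2 each, and Eda2r, Perp, Phlda3 and Zmat3 had 1 each. The probeset of largest average signal stands for each gene, and other probesets are named where they are given.

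All 16 samples were of the FVB background. Control skin (n = 4) was normal, wild-type skin. The p53 tumors (n = 7) were squamous cell carcinomas of k14Cre;p53loxP/loxP mice, and the pRbp53 tumors (n = 5) were from k14Cre;p53loxP/loxP;pRbloxP/loxP mice, which also lose pRb, the product of Rb1. The keratin 14 promoter drives Cre in stratified epithelia, so that fibroblasts, vessels and immune cells in a tumor keep their p53. By histology, 3 p53 tumors were poorly differentiated (tumors 2, 4 and 5), 1 was undifferentiated (tumor 3), 1 was a spindle cell carcinoma (tumor 6) and 2 were mixed (tumors 1 and 7). Of the pRbp53 tumors, 4 were spindle cell carcinomas (tumors 1, 2, 3 and 5) and 1 was mixed (tumor 4). Each poorly differentiated tumor was thus a p53 tumor. The labels do not say whether any animal gave more than 1 sample, so p-values measure only the spread between these samples, which may be technical.

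The values are log2 signals of total RNA, 1 array per sample, and the number of arrays limits their precision. The median signal of an array lay between 5.63 and 5.76. The actin probes of the 3' end exceeded those of the 5' end, a sign of RNA quality, by 1.33 in control skin 3 and by 1.67 in p53 tumor 7, while the remaining samples ranged from 0.21 to 0.68. Control skin 2 and 4 correlated at r = 0.996 across probesets, and the other pairs of controls at 0.970 to 0.984. Rb1 differed between tumors and control skin by −1.35 ± 0.20 (SE, adjusted p = 2.23e-04) and between pRbp53 and p53 tumors by −0.36 ± 0.19 (adjusted p = 0.601). The genotypes overlapped in Rb1, from 7.57 to 8.50 in p53 tumors and from 7.10 to 7.94 in pRbp53 tumors, but whether its probeset lies within the deleted exons is not known, so it checks nothing. The tissues differed in cell content. The mean log2 signal of 8 skeletal muscle markers, all 8 of which fell, was 13.06 to 13.30 in control skin and 4.42 to 8.80 in the tumors. That of 10 keratinocyte markers, of which 6 fell, was 11.92 to 11.97 in control skin and 4.83 to 11.13 in the tumors. In addition 5 of 5 adipocyte and 5 of 5 T cell markers fell, and 1 of 5 endothelial, 0 of 7 fibroblast and 0 of 6 macrophage markers did. These counts are over all tumors. In poorly differentiated tumors 5 of 7 fibroblast and 2 of 6 macrophage markers were called lower than in control skin. In undifferentiated or spindle tumors 1 fibroblast marker was called higher and 0 macrophage markers were called. The part of these differences in the results on the p53 targets was not tested.

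Under stress p53 accumulates, binds paired elements in DNA and switches on genes that halt the cell cycle, trigger cell death, limit growth signalling or repair DNA. Mdm2 is both a target and the ubiquitin ligase that marks p53 for degradation, which closes a feedback loop. In the epidermis p53 is best known for the response to ultraviolet light. Its relative p63, which recognises similar DNA, is required to build stratified epithelium and activates some of the same genes there, Perp among them.

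The promoters of the genes are shown first, since p53 reaches its targets through DNA elements of this kind. The sequences are the 250 bases before a gene's start in RefSeq (build GRCm38.p6), written 5' to 3' on the strand of the gene, and windows were given for 7 of the 10 genes, with 9 windows in all; Perp, Trp53inp1 and Zmat3 had none. They were searched on both strands for exact matches to the p53 decamer, the 10-base element of which p53 binds a pair. Its pattern is RRRCWWGYYY, where R is a purine, W is A or T and Y is a pyrimidine. It was present in 7.13% of all 32851 windows and in 4 of the 9 windows here, 1 each of Ccng1, Cdkn1a, Mdm2 and Sesn1. The windows of Ccng1 and Eda2r are shown because these genes were lower in every tumor, those of Cdkn1a and Mdm2 because these genes halt the cell cycle and restrain p53. Capitals mark the decamers.
Ccng1, chr11:40755287-40755536, minus strand: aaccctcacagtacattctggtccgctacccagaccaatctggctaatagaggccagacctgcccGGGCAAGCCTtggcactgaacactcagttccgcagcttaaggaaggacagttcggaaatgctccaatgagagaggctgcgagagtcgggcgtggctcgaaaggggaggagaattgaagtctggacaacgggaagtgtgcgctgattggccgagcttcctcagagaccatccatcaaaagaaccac
Cdkn1a, chr17:29090729-29090978, plus strand: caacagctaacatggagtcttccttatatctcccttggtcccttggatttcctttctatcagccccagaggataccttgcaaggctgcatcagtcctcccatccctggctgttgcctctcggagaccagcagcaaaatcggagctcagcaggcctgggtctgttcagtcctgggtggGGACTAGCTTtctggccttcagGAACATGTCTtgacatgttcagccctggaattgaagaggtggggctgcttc
Mdm2, chr10:117710759-117711008, minus strand: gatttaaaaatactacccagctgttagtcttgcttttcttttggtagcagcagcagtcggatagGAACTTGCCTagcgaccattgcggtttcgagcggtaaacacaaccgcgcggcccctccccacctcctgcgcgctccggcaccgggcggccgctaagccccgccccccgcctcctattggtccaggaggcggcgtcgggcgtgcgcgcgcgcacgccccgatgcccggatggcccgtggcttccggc
Eda2r, chrX:97377210-97377459, minus strand: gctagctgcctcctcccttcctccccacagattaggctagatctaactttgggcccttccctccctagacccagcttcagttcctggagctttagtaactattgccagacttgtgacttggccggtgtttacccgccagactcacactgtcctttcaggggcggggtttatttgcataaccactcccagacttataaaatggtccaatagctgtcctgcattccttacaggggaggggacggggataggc
Cdkn1a, which encodes the cyclin-dependent kinase inhibitor p21, held a pair in the window shown, GGACTAGCTT and GAACATGTCT, with 12 bases between them. The second decamer started 51 bases before the gene start of that window. The bases directly after it, tgacatgttc, miss the pattern in their first base alone, so they were neither marked nor counted. The spaced pair is thus the one that exact matching finds. A pair with at most 13 bases between its members was found in 21 windows of the table, or 0.0639%. Ccng1 held GGGCAAGCCT, Mdm2 GAACTTGCCT and Sesn1 AAGCTTGTTT, each alone. The windows of Eda2r, Sesn2 and Phlda3 held no decamer. Nor did the other window of Cdkn1a, before another annotated start (chr17:29093519-29093768), or the other window of Sesn1 (chr10:41810324-41810573). A match describes letters in a window and is not a bound site.

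Against control skin, most of the 10 genes were lower in the tumors, but few by more than the spread between samples allowed to be called. The cyclin gene Ccng1 and the death receptor gene Eda2r fell, and the other 8 genes did not pass an adjusted p of 0.05. The 2 called of 10 are to be read against 16.7% of all genes called in this comparison, and 9.17% called lower. In mean log2 signal 9 of the 10 were lower, Mdm2 being higher, and the median difference over the 10 was −0.99 against 0.06 over all genes. In Ccng1, Eda2r and Perp all 12 tumors lay below all 4 controls; 9.39% of all genes did not overlap between the groups, and 5.54% did so with the tumors lower. Counted by tumor, from 5 of the 10 genes (p53 tumor 7) to 9 of 10 (pRbp53 tumors 2 and 5) were below the lowest control. The share of all genes below the lowest control in a single tumor was not counted. These counts therefore cannot be read as a trait of the 10 genes. Each sample is bulk RNA, in which fewer cells of a type and less RNA per cell cannot be told apart.

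**Figure D1:**
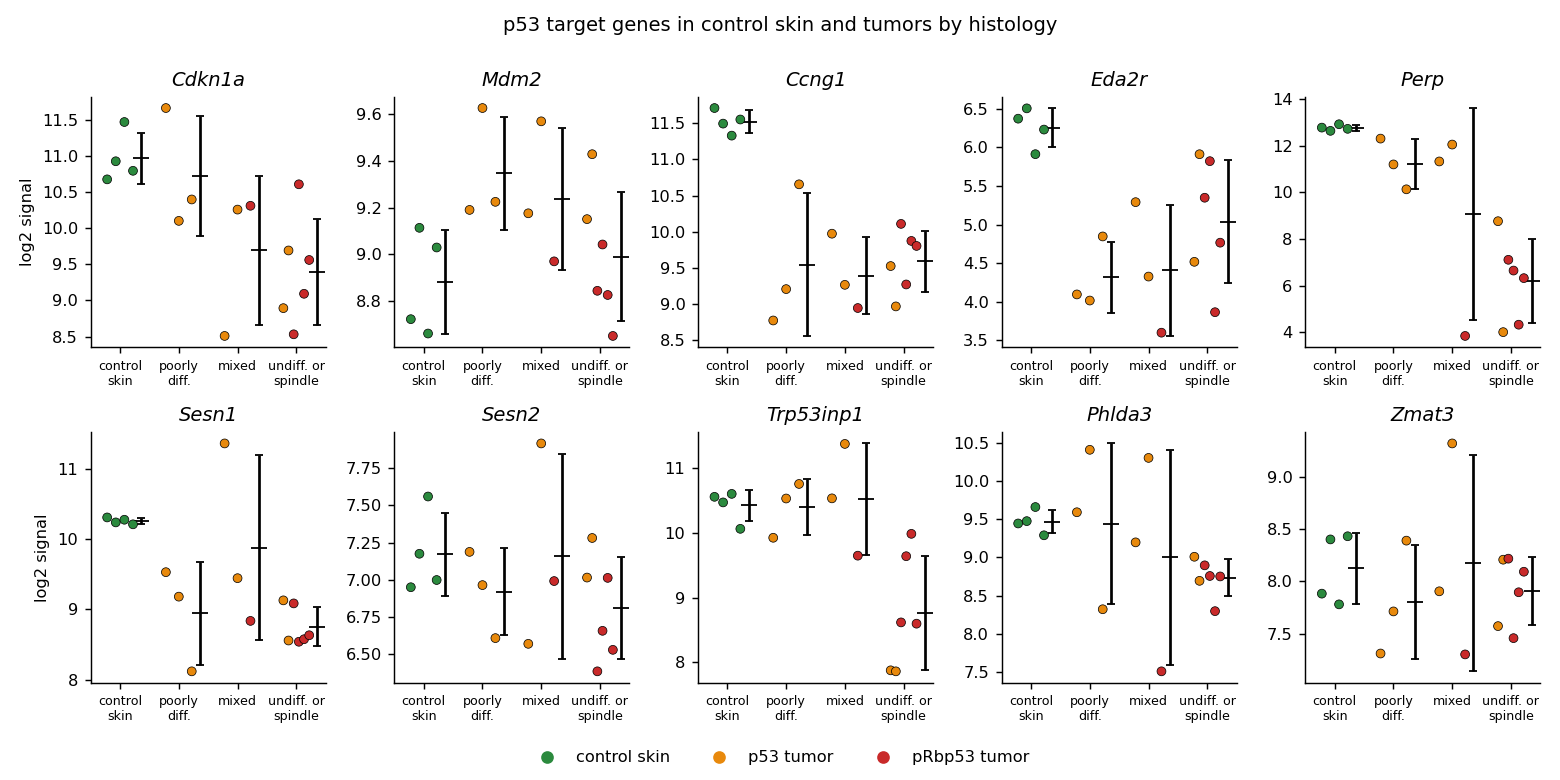
Log2 signal (vertical axes, a separate scale for each gene) of the 10 p53 target genes in 4 control skin samples and 12 tumors, placed by histology (horizontal axes) and coloured by genotype. Points are samples and bars give the mean and SD of each histological group. The tumors lie below all controls in Ccng1, Eda2r and Perp, and Perp spans 8.46 log2 units among the tumors against 0.28 among the controls.

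Ccng1 encodes cyclin G1, a p53 target that recruits a phosphatase to Mdm2. Its log2 signal was 11.71, 11.49, 11.33 and 11.55 in control skin 1 to 4, from 8.77 to 10.65 with a median of 9.27 in the 7 p53 tumors, and 10.11, 9.27, 9.87, 8.95 and 9.80 in pRbp53 tumors 1 to 5. Every tumor was thus below every control, the closest being p53 tumor 5 at 10.65. Ccng1 fell by 1.99 ± 0.28 (SE, n = 12 and 4, adjusted p = 1.35e-04), a 3.97-fold lower signal. In p53 tumors alone it fell by 2.04 ± 0.31 (adjusted p = 4.47e-04) and in pRbp53 tumors it fell by 1.92 ± 0.33 (adjusted p = 0.0013). By histology the differences were −1.97 ± 0.39 in poorly differentiated, −2.12 ± 0.39 in mixed and −1.93 ± 0.33 in undifferentiated or spindle tumors, with adjusted p = 0.0041, 0.0032 and 8.80e-04. These comparisons share the control samples. The other probesets of Ccng1 were called as well, at −1.66 ± 0.47 and −2.02 ± 0.41 (adjusted p = 0.0264 and 0.0036), although their groups overlapped. The first of them did not pass without control skin 1, 2 or 4 (adjusted p = 0.0887, 0.110 and 0.0993). On both of them control skin 3, at 8.28 and 9.40, was the lowest control and p53 tumor 7, at 6.84 and 6.72, the lowest tumor, and these are the samples with the largest actin difference.

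Cdkn1a, the cell cycle inhibitor, varied more. Its log2 signal was 10.67, 10.92, 11.47 and 10.79 in control skin 1 to 4. In the poorly differentiated p53 tumors 2, 4 and 5 it was 11.66, 10.10 and 10.40, in the mixed p53 tumors 1 and 7 and pRbp53 tumor 4 it was 8.51, 10.26 and 10.31, and in the 6 undifferentiated or spindle tumors it ranged from 8.53 to 10.61 with a median of 9.33. Thus 11 of the 12 tumors were below all controls and p53 tumor 2 was above them. Over all tumors the difference was −1.16 ± 0.46 (SE, adjusted p = 0.115), and without p53 tumor 2 Cdkn1a passed (−1.33, adjusted p = 0.0321). In undifferentiated or spindle tumors Cdkn1a fell by 1.57 ± 0.44 (SE, n = 6 and 4, adjusted p = 0.0230), and its other probeset fell by 1.50 ± 0.36 (adjusted p = 0.0093). Without control skin 2 or control skin 3 the first of these no longer passed (adjusted p = 0.0523 and 0.0767). The poorly differentiated tumors had a mean of 10.72 ± 0.83 (SD, n = 3) beside 10.96 ± 0.35 (SD, n = 4) in control skin. Undifferentiated or spindle against poorly differentiated tumors, the difference was −1.32 ± 0.48 (adjusted p = 0.147), and −1.41 ± 0.37 on the other probeset (adjusted p = 0.0566), which passed without pRbp53 tumor 2 (adjusted p = 0.0118).

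Mdm2, the negative regulator of p53, was the one gene of the 10 with a higher mean in the tumors. Its log2 signal was 8.72, 9.11, 8.66 and 9.03 in control skin 1 to 4, from 9.15 to 9.63 with a median of 9.23 in the 7 p53 tumors, and 8.84, 9.04, 8.83, 8.97 and 8.65 in pRbp53 tumors 1 to 5. All 7 p53 tumors were above all 4 controls, and above all 5 pRbp53 tumors, which lay among the controls apart from tumor 5. In p53 tumors Mdm2 rose by 0.46 ± 0.13 (SE, n = 7 and 4, adjusted p = 0.0292), a 1.37-fold higher signal, where 6.64% of all genes were called higher. A second probeset rose by 0.48 ± 0.12 (adjusted p = 0.0172), without passing when control skin 1 or 3 was left out (adjusted p = 0.0624 and 0.0701). It also failed with the methods' t-test, a prior with a trend or the replicate block (adjusted p = 0.134, 0.0560 and 0.101). The same held without both control skin 3 and p53 tumor 7 (adjusted p = 0.0901), so that 6 of 26 alternatives did not call it. The remaining probeset was between 3.37 and 4.16 in all 16 samples. In pRbp53 tumors the mean was 8.87 ± 0.15 (SD, n = 5) beside 8.88 ± 0.22 (SD, n = 4) in control skin. The call of the first probeset in p53 tumors was lost without control skin 1, control skin 3 or p53 tumor 6 (adjusted p = 0.106, 0.107 and 0.0521), and without both control skin 3 and p53 tumor 7 (adjusted p = 0.137). It was also lost with the methods' t-test, quantile normalization, a prior with a trend, array weights, brighter probesets alone or the compared groups alone (adjusted p = 0.0968, 0.0514, 0.0691, 0.0565, 0.0503 and 0.0580). In all 11 of 27 alternatives did not call it.

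Mdm2 also bears on the second question of the study, whether tumors that lack both p53 and pRb differ from those that lack p53. Of the 10 genes 0 passed an adjusted p of 0.1, the threshold that the study used here, and 0.159% of all genes did. At an unadjusted p under 0.05 there were 3, Mdm2, Perp and Phlda3, each lower in the pRbp53 tumors, beside 10.6% of all genes at that level, and the methods' t-test called 0. Mdm2 differed by −0.47 ± 0.11 (SE, n = 5 and 7, adjusted p = 0.211) with no overlap between the genotypes, which held for 0.929% of all genes.  On its second probeset the p53 tumors were at 7.93 to 8.38 with a median of 8.29, and pRbp53 tumors 1 to 5 at 7.83, 7.85, 7.60, 7.63 and 7.56. There the genotypes did not overlap either and Mdm2 fell by 0.53 ± 0.10 in pRbp53 relative to p53 tumors (adjusted p = 0.0943), where 0.198% of all probesets passed. This call was lost in 9 of the 12 fits that left out 1 tumor, those without p53 tumor 3, 4, 5 or 7 or any pRbp53 tumor, with adjusted p from 0.0581 to 0.254 over the 12. With grade as a covariate the difference was −0.56 (adjusted p = 0.195), and in undifferentiated or spindle tumors alone it was −0.55 (adjusted p = 0.255).

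**Figure D2:**
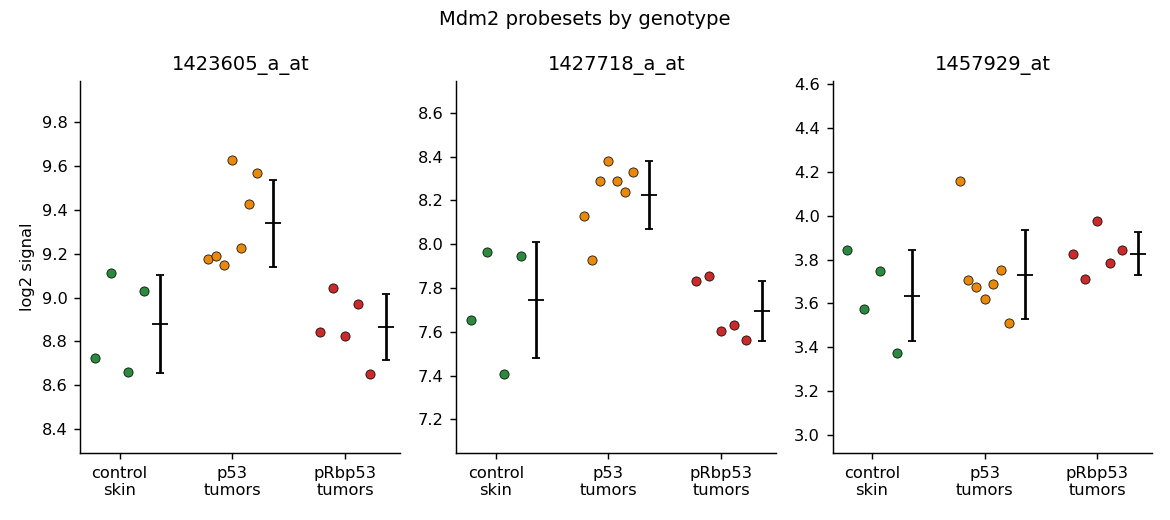
Log2 signal (vertical axes, each spanning the same width) of the 3 Mdm2 probesets in control skin, p53 tumors and pRbp53 tumors (horizontal axes). Points are samples and bars the mean and SD. On the first 2 probesets the p53 tumors lie above the pRbp53 tumors without overlap, and the remaining one stays between 3.37 and 4.16 in every group.

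Eda2r encodes a death receptor of the tumor necrosis factor receptor family, the receptor of ectodysplasin A2. Its log2 signal was 6.37, 6.50, 5.91 and 6.23 in control skin 1 to 4, from 4.02 to 5.91 with a median of 4.52 in p53 tumors, and 5.35, 5.82, 3.86, 3.60 and 4.77 in pRbp53 tumors 1 to 5. All tumors were lower than all controls, although p53 tumor 6 and control skin 3 both round to 5.91. The controls lay little above the array medians of 5.63 to 5.76, and the lowest tumor was at 3.60. Without detection calls, whether Eda2r was above background in the lowest tumors is not known. Eda2r fell by 1.55 ± 0.38 (SE, n = 12 and 4, adjusted p = 0.0115), and this call held without any single sample (adjusted p at most 0.0462). It fell by 1.54 ± 0.42 in p53 tumors (adjusted p = 0.0273) and fell by 1.57 ± 0.45 in pRbp53 tumors (adjusted p = 0.0331). By histology the differences were −1.93 ± 0.47 in poorly differentiated, −1.85 ± 0.47 in mixed and −1.22 ± 0.40 in undifferentiated or spindle tumors, with adjusted p = 0.0160, 0.0263 and 0.0463. These smaller groups did not keep the call in every fit that left out 1 sample. It was lost in p53 tumors without control skin 1, 2 or 4 (adjusted p up to 0.0808), in pRbp53 tumors without any 1 control or pRbp53 tumor 3, 4 or 5 (up to 0.0891), and in poorly differentiated tumors without p53 tumor 2 or 4 (up to 0.0696). It was lost in mixed tumors without control skin 1, 2 or 4, p53 tumor 7 or pRbp53 tumor 4 (up to 0.119). In undifferentiated or spindle tumors it was lost in 11 of 16 such fits, without any 1 control, p53 tumor 2, 3, 4 or 7, or pRbp53 tumor 1, 3 or 5 (up to 0.117).

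Perp encodes a membrane protein that p53 induces in dying cells and that also belongs to the desmosome, the junction that holds keratinocytes together. It was the gene of the 10 that varied most among tumors. Its log2 signal was 12.77, 12.64, 12.92 and 12.72 in control skin 1 to 4. The poorly differentiated p53 tumors 2, 4 and 5 were at 12.30, 11.20 and 10.13. The mixed p53 tumors 1 and 7 were at 11.32 and 12.05, while the mixed pRbp53 tumor 4 was at 3.84. The undifferentiated p53 tumor 3 was at 8.76 and the spindle p53 tumor 6 at 4.002. The spindle pRbp53 tumors 1, 2, 3 and 5 were at 7.10, 6.64, 4.32 and 6.32. All 12 tumors were below the controls, and their differences from the control mean ran from −0.46 in p53 tumor 2 to −8.92 in pRbp53 tumor 4.

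In all tumors Perp differed from control skin by −4.60 ± 1.55 (SE, adjusted p = 0.0617), and it passed without p53 tumor 1, 2, 4 or 7 (adjusted p = 0.0493, 0.0372, 0.0496 and 0.0359). In pRbp53 tumors Perp fell by 7.12 ± 1.34 (SE, n = 5 and 4, adjusted p = 0.0026), and in undifferentiated or spindle tumors it fell by 6.57 ± 1.33 (SE, n = 6 and 4, adjusted p = 0.0032). Both calls held without any single sample. The signals come without detection calls, so whether Perp was above background in the lowest tumors is not known, and no fold is given for it. In p53 tumors the difference was −2.80 ± 1.25 (adjusted p = 0.176) and in mixed tumors −3.69 ± 1.58 (adjusted p = 0.179). Between genotypes it was −4.32 ± 1.32 (adjusted p = 0.325), and −5.31 without p53 tumor 6 (adjusted p = 0.0273). The 5 pRbp53 tumors include 4 of the 5 spindle cell carcinomas, so the genotype and the grade are partly confounded.

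Perp was the only gene of the 10 to pass between the histological grades, where 9.12% of all genes did. It fell by 5.02 ± 1.02 from poorly differentiated to undifferentiated or spindle tumors (SE, n = 3 and 6, adjusted p = 0.0206), and the groups did not overlap, as in 15.9% of all genes. Without p53 tumor 2 or p53 tumor 4 it did not pass (adjusted p = 0.0814 and 0.0715), nor with the genotype as a covariate or in p53 tumors alone, where the difference was −4.83 in both (adjusted p = 0.106 and 0.220). The epithelial genes were lower there as well. The mean log2 signal of 7 desmosome genes was 10.27 to 10.52 in control skin, 8.66 to 10.37 in poorly differentiated and 4.76 to 5.78 in undifferentiated or spindle tumors. That of the 10 keratinocyte markers was 5.88 to 9.62 in poorly differentiated and 4.83 to 5.80 in undifferentiated or spindle tumors. Between these grades 5 of 7 desmosome genes and 2 of 10 keratinocyte markers were called lower. Other cell types differed too, since 6 of 7 fibroblast and 5 of 6 macrophage markers were called higher in undifferentiated or spindle tumors. The part of these genes in the change of Perp was not tested. The samples were not ordered alike in all cases: in the mixed pRbp53 tumor 4 the difference of Perp from the control mean was −8.92 and that of the desmosome genes −3.65, and in the undifferentiated p53 tumor 3 these were −4.003 and −4.62. The control mean was 12.76 for Perp and 10.40 for the desmosome genes. A single gene can also fall further than a mean of 7, so the sizes are not directly comparable.

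**Figure D3:**
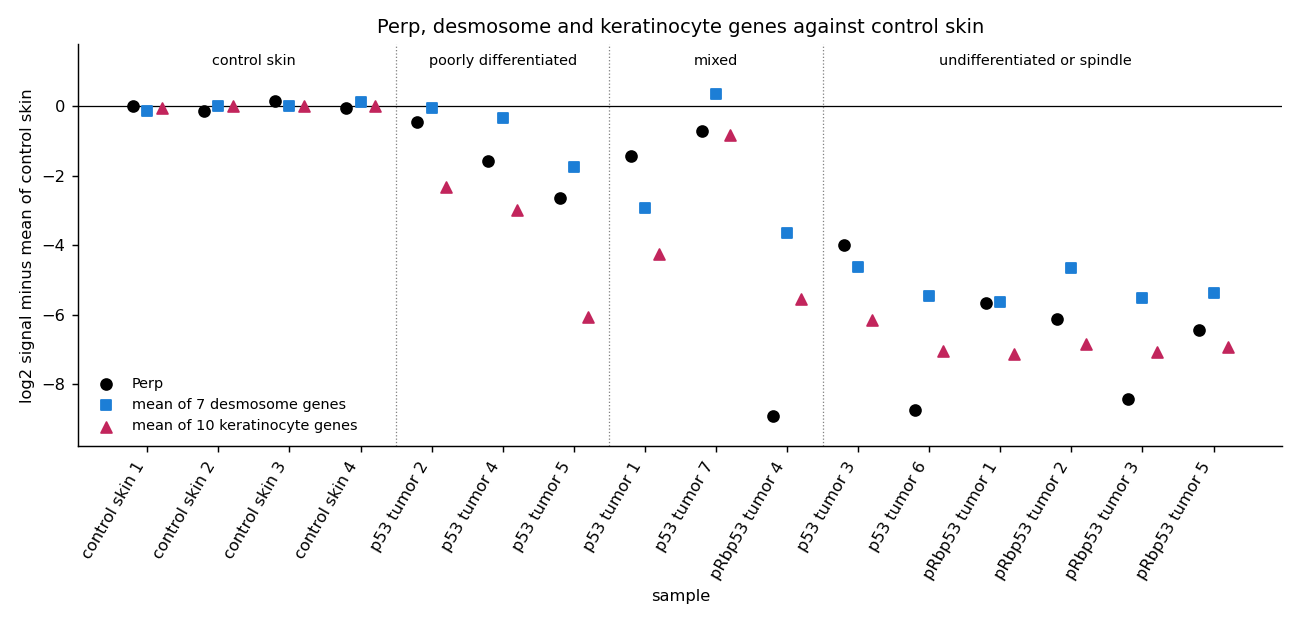
Log2 signal minus the mean of control skin (vertical axis) of Perp, of the mean of 7 desmosome genes and of the mean of 10 keratinocyte genes in each of the 16 samples (horizontal axis), arranged by histology. Perp lies between −2.63 and −0.46 in the 3 poorly differentiated tumors and between −8.76 and −4.003 in the 6 undifferentiated or spindle tumors.

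Trp53inp1 encodes a nuclear protein that promotes p53 activity and autophagy. Its log2 signal was 10.56, 10.47, 10.61 and 10.07 in control skin 1 to 4 and 9.93, 10.53 and 10.76 in the poorly differentiated p53 tumors 2, 4 and 5. The mixed p53 tumors 1 and 7 and pRbp53 tumor 4 were at 10.54, 11.38 and 9.65, and the 6 undifferentiated or spindle tumors ranged from 7.86 to 9.99 with a median of 8.61. All 6 of the latter were below all controls, while the other histological groups overlapped with control skin. Trp53inp1 fell by 1.66 ± 0.43 in undifferentiated or spindle tumors (SE, n = 6 and 4, adjusted p = 0.0134), a 3.17-fold lower signal. Over all tumors the difference was −0.81 ± 0.56 (adjusted p = 0.389). Between the grades it was −1.64 ± 0.50 (adjusted p = 0.0875), and it passed with the genotype as a covariate (adjusted p = 0.0248), in p53 tumors alone (adjusted p = 0.0358) and without pRbp53 tumor 3 (adjusted p = 0.0397). The second probeset of Trp53inp1 had a control mean of 6.20 and did not pass (adjusted p = 0.287 in undifferentiated or spindle tumors).

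Sesn1 and Sesn2 encode sestrins, which protect against oxidative stress and restrain the growth kinase mTORC1. The log2 signal of Sesn1 was 10.31, 10.24, 10.28 and 10.21 in control skin 1 to 4, from 8.12 to 11.36 with a median of 9.18 in p53 tumors, and 9.09, 8.54, 8.58, 8.84 and 8.63 in pRbp53 tumors 1 to 5. The mixed p53 tumor 1, at 11.36, was above all controls, and the other 11 tumors were below all controls. It was also the highest tumor on the other 3 probesets of Sesn1, at 9.15, 6.53 and 9.89. The mean of the skeletal muscle markers in that tumor was 4.68, beside 13.06 to 13.30 in control skin. The source of its high Sesn1 signal was not tested. Over all tumors Sesn1 differed by −1.18 ± 0.40 (SE, adjusted p = 0.0666), and by −1.38 without p53 tumor 1 (adjusted p = 5.40e-04). Of its other probesets 1 passed, at −1.24 ± 0.40 (adjusted p = 0.0498), a call that was lost on leaving out any 1 sample other than p53 tumor 1 or 2 (adjusted p up to 0.141), and 2 did not (adjusted p = 0.0612 and 0.0603) unless p53 tumor 1 was left out (adjusted p = 0.0106 and 6.26e-05). In pRbp53 tumors it fell by 1.53 ± 0.45 (SE, n = 5 and 4, adjusted p = 0.0373), although it did not pass without any 1 control or pRbp53 tumor 2, 3, 4 or 5 (adjusted p up to 0.0880). The other 3 probesets did not pass in pRbp53 tumors (−0.97 ± 0.37, −1.41 ± 0.44 and −1.45 ± 0.46, adjusted p = 0.104, 0.0518 and 0.0540). Without p53 tumor 1 they did (adjusted p = 0.0403, 3.72e-04 and 0.0016), as the last did without p53 tumor 5 (adjusted p = 0.0397). In undifferentiated or spindle tumors it fell by 1.51 ± 0.39 (adjusted p = 0.0140), and this held without any single sample. There the other 3 probesets were called as well, at −1.14 ± 0.31, −1.39 ± 0.41 and −1.49 ± 0.42. These calls were lost without control skin 3 or 4 for the first (adjusted p up to 0.0669), without control skin 2 or 3, p53 tumor 3 or 6 or pRbp53 tumor 5 for the second (up to 0.0911), and without control skin 1, 2 or 4 for the last (up to 0.0627).

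Sesn2 was from 6.95 to 7.56 in control skin and from 6.39 to 7.92 in the tumors. Of the 12 tumors 5 were below the controls, 6 among them and 1 above, and the difference was −0.24 ± 0.22 (SE, adjusted p = 0.525), with a 95% interval from −0.72 to 0.23. Its second probeset was from 5.92 to 6.82 in control skin and from 5.79 to 7.28 in the tumors, with a difference of −0.033 ± 0.28 (adjusted p = 0.954). In p53 tumors the probesets stood on either side of 0, at −0.093 ± 0.23 and 0.17 ± 0.28, and neither passed. The sestrin genes therefore differed in how far the groups overlapped, a difference that was not tested.

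Phlda3, which encodes an inhibitor of the kinase Akt, and Zmat3, a zinc finger protein that binds RNA, showed no call in any of the 8 comparisons. Phlda3 was at 9.44, 9.47, 9.66 and 9.29 in control skin 1 to 4, from 8.32 to 10.41 with a median of 9.20 in p53 tumors, and 8.90, 8.76, 8.30, 7.51 and 8.75 in pRbp53 tumors 1 to 5. The p53 tumors lay on both sides of the controls, and all pRbp53 tumors were below them. The difference in pRbp53 tumors was −1.02 ± 0.40 (SE, adjusted p = 0.112), and that between genotypes was −0.92 ± 0.39 (adjusted p = 0.494). Between the grades it was −0.71 ± 0.38 (adjusted p = 0.338), and −1.26 without p53 tumor 5 (adjusted p = 0.0208). In pRbp53 tumors Phlda3 passed with array weights or only the groups compared (adjusted p = 0.0277 and 0.0281). The undifferentiated or spindle tumors, at 8.30 to 9.01, were all below the controls. There Phlda3 passed in 2 of 27 alternatives, among them the methods' t-test (−0.73, adjusted p = 0.0066). Zmat3 was from 7.78 to 8.43 in control skin and from 7.30 to 9.32 in the tumors, with 5 tumors below the controls, 6 among them and p53 tumor 7 above. Its difference was −0.18 ± 0.29 (adjusted p = 0.747), with a 95% interval from −0.80 to 0.45, and that of Phlda3 was −0.49 ± 0.40 (adjusted p = 0.480), from −1.35 to 0.37.

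By genotype, 3 of the 10 genes were called in p53 tumors, where 15.2% of all genes were, namely Ccng1 and Eda2r lower and Mdm2 higher. In these tumors 4 genes did not overlap with control skin (Mdm2, Ccng1, Eda2r and Perp), as in 13.9% of all genes. In pRbp53 tumors 4 were called, all lower (Ccng1, Eda2r, Perp and Sesn1), where 16.2% of all genes were and 9.55% were lower, and 7 did not overlap with control skin, as in 24.5% of all genes. By histology, 2 were called in poorly differentiated tumors (14.8% of all genes) and 2 in mixed tumors (11.4%), Ccng1 and Eda2r in both. In undifferentiated or spindle tumors 6 were called, all lower (Ccng1, Perp, Trp53inp1, Sesn1, Cdkn1a and Eda2r), beside 24.1% of all genes called and 12.5% called lower. There 7 did not overlap with control skin, as in 25.8% of all genes. The groups are of unequal size, and these counts were not tested against each other. The direct test between the grades called Perp alone.

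**Figure D4:**
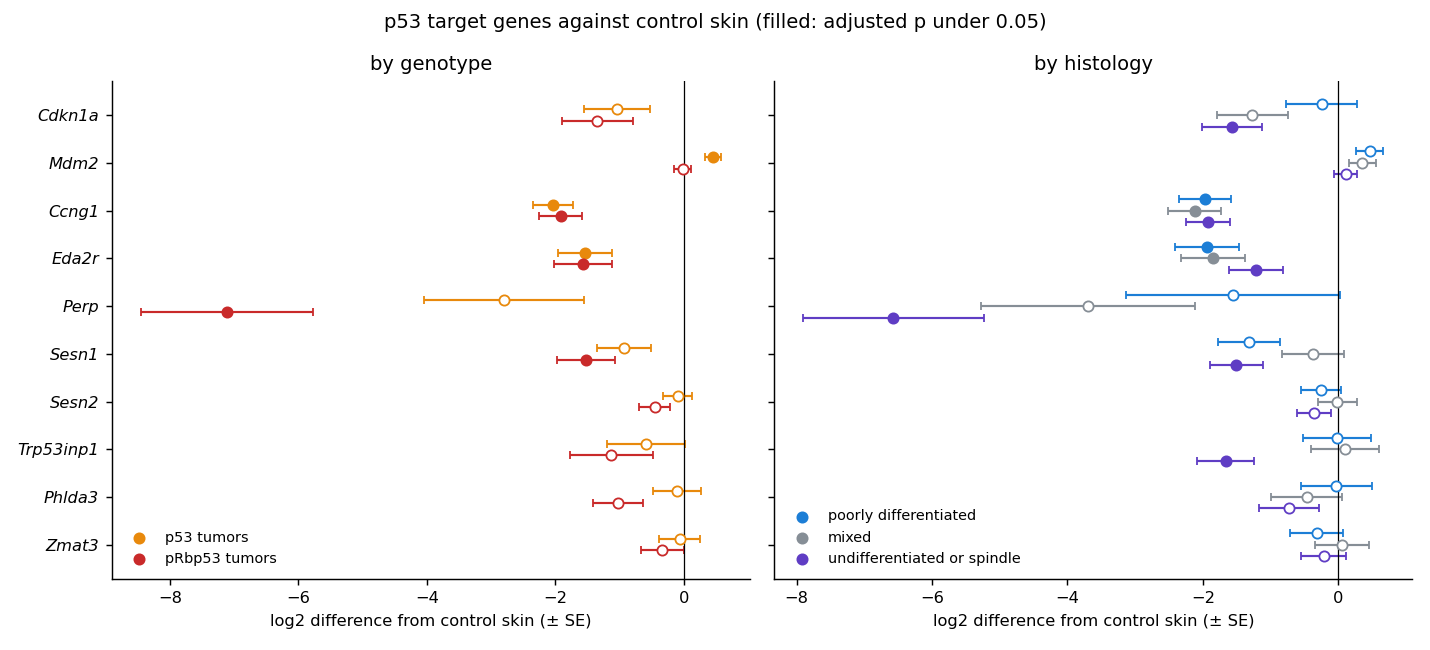
Log2 difference from control skin (horizontal axes, ± SE) of the 10 genes (vertical axis), by genotype on the left and by histology on the right. Filled points passed an adjusted p of 0.05. Ccng1 and Eda2r are filled in every group, Mdm2 lies to the right of 0 in p53 tumors, and Perp extends furthest to the left, to −7.12 in pRbp53 tumors. Small differences with open points changed sign in some alternative fits.

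Other p53 targets did not share 1 direction in tumors. Of 9 genes of apoptosis measured, Siva1, which encodes a pro-apoptotic adaptor, rose by 1.01 ± 0.27 (SE, adjusted p = 0.0201). The other 8 did not pass, with Pmaip1, the BH3-only gene of Noxa, at 1.26 ± 0.65, the death receptor Fas at −0.90 ± 0.35 and Ei24 at −0.68 ± 0.26. The median of the 9 was 0.03. Of 7 genes of the cell cycle, Sfn, the epithelial 14-3-3 sigma, fell by 3.73 ± 1.15 (adjusted p = 0.0418) and Gtse1, a mitotic gene whose product binds p53, rose by 1.19 ± 0.29 (adjusted p = 0.0108). Gadd45a and Plk2, stress-induced genes, stood at 1.49 ± 0.62 and 1.21 ± 0.39 without passing (adjusted p = 0.133 and 0.0501), and the median was −0.27.

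Of 4 genes of repair and nucleotide supply 0 passed limma's test, and 0 had an unadjusted p under 0.05 (Ercc5 −0.45 ± 0.27, Polk 0.33 ± 0.38, Xpc −0.24 ± 0.42 and Rrm2b −0.23 ± 0.19). Of 4 genes of metabolism and autophagy 2 fell, Tigar, which lowers glycolytic flux, at −1.61 ± 0.30 (adjusted p = 0.0018) and Ak1, an adenylate kinase abundant in muscle, at −1.55 ± 0.46 (adjusted p = 0.0332). Ddit4 and Dram1 stood at 1.11 ± 0.60 and −0.65 ± 0.77. Among 6 regulators and relatives of p53, Cdkn2a, which encodes p16INK4a and the Mdm2 inhibitor p19ARF, rose by 3.03 ± 0.81 (adjusted p = 0.0205). The p63 gene, Trp63, stood at −3.98 ± 1.48 (adjusted p = 0.0927), with 9.85 to 10.51 in control skin, 3.84 to 10.36 in poorly differentiated and 3.78 to 5.61 in undifferentiated or spindle tumors. Usp7 and Trp73 stood at −0.75 ± 0.32 and −0.56 ± 0.46. Bax and Gls2 of these lists were not analysed here. Of 7 desmosome genes 3 fell, Dsc3 (−6.24 ± 1.26), Pkp1 (−3.90 ± 1.04) and Pkp3 (−3.17 ± 0.85), and desmoplakin, Dsp, stood at −5.30 ± 1.85 (adjusted p = 0.0722).

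**Figure D5:**
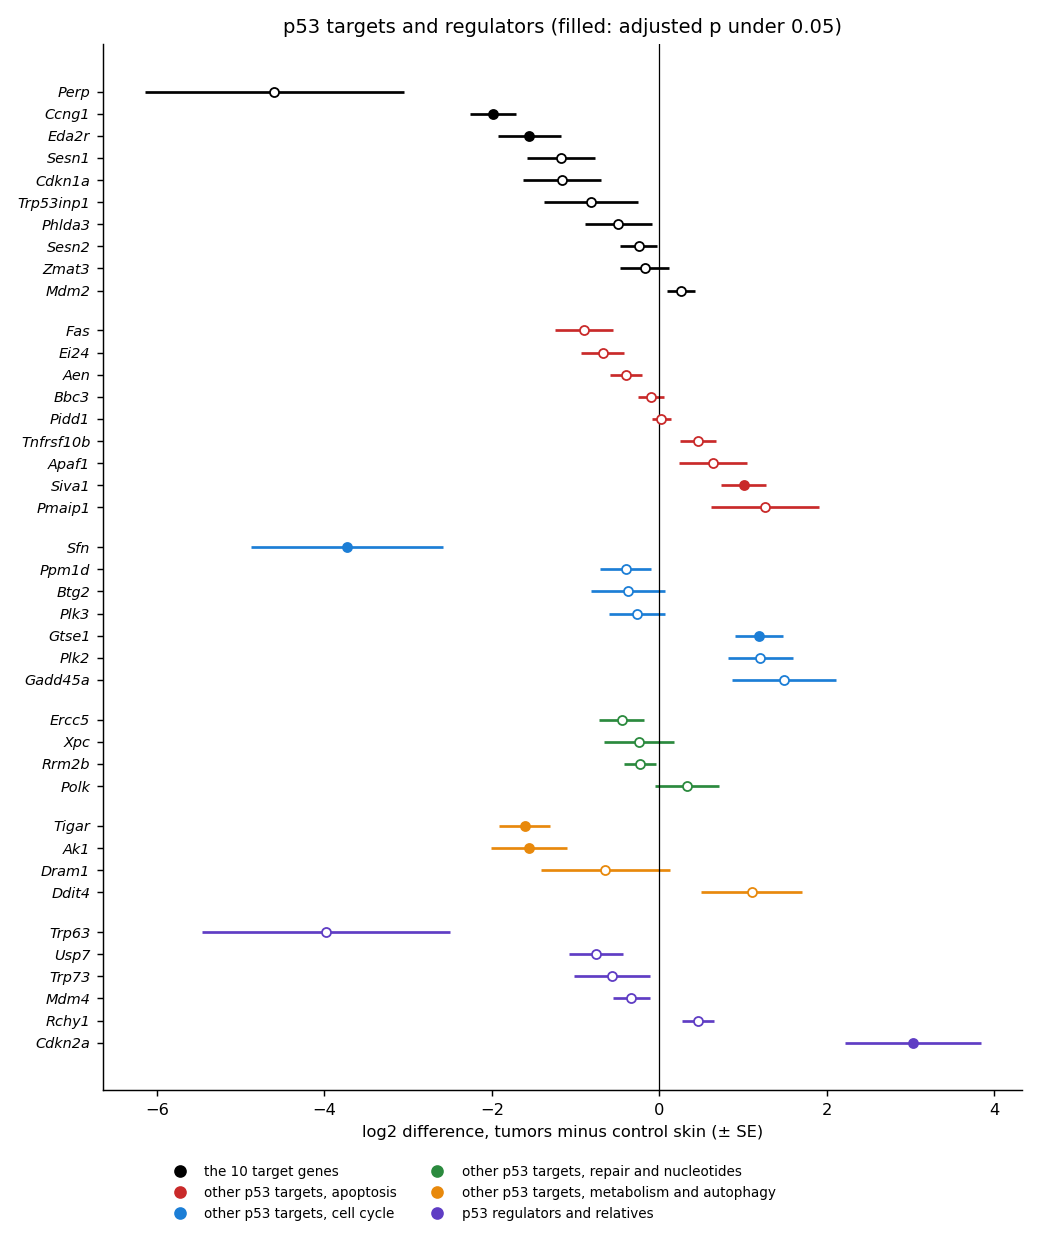
Log2 difference between the 12 tumors and 4 control skin samples (horizontal axis, ± SE) of the 10 genes, of 24 other p53 targets in 4 groups and of 6 regulators and relatives of p53 (vertical axis). Filled points passed an adjusted p of 0.05. Of the targets outside the 10, Siva1 and Gtse1 are filled above 0, and Sfn, Tigar and Ak1 below it.

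For each of the 10 genes, the genes whose level over the 12 tumors was most like it were taken by Pearson's correlation. All genes were read from the same arrays, 1 per tumor, and these were picked as the closest of 18193. The values are descriptions without a test. Ccng1 ran closest with Trim12c (r = 0.95, Spearman's rho = 0.97), and Trp53inp1 with Mkrn1, Nfia and Vdr (r = 0.96, 0.95 and 0.94). The closest named gene to Perp was Itgb4 (r = 0.92, rho = 0.87), which encodes the integrin of hemidesmosomes. Cdkn1a ran closest with Tug1 (r = 0.89), Mdm2 with Shcbp1l (r = 0.92), Eda2r with Ttf2 (r = 0.91), Sesn2 with Ppp1r15a, a gene of the integrated stress response (r = 0.94), Phlda3 with Mlh3 (r = 0.91) and Zmat3 with Cldn2 (r = 0.89). After leaving out the 2 tumors farthest from the median of each member, r was 0.94 for Ccng1, 0.92 for Trp53inp1 with Mkrn1, 0.89 for Perp, 0.80 for Cdkn1a, 0.83 for Mdm2, 0.81 for Eda2r, 0.82 for Sesn2, 0.82 for Phlda3 and 0.82 for Zmat3. The closest profiles to Sesn1 rested on p53 tumors 1 and 5, since r with 2610203C22Rik dropped from 0.90 to 0.37 without them. No other member was among the 3 closest genes of any member.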

How the data were processed

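Total RNA of 4 control skin samples and 12 tumors was hybridised to Affymetrix MOE430 2.0 arrays. The deposited log2 signals were made by the authors with RMA (background correction, quantile normalization and 1 summary value per probeset), whose version is not given in the sources used here. Since arrays are forced to a like distribution, a shift of all genes is not seen. Of 45101 probesets, 64 array controls were left out. Under a 2016 annotation 34945 of the others carried a single symbol, 932 carried more and 9160 carried none.

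Samples were grouped by titles and labelled histology. Linear models were fitted to all probesets with limma 3.58.1 (R 4.3.3) with empirical Bayes moderation, two-sided tests and Benjamini-Hochberg adjustment over 45037 probesets. An adjusted p of 0.05, or 0.1 between genotypes, was required. Tumors against control skin, the 3 genotype groups and the 4 histological groups were fitted over all 16 samples, genotype over 12 tumors and grade over 9. The fit was tested on simulated data.

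Members and gene lists were chosen with earlier results of these data known. Besides the members, up to 4 genes of each p53 list and of the desmosome list with the largest difference and those that passed were named. Cell type markers were given as counts and means. Of the 3 closest genes of each member by Pearson's correlation, the first was named, and all 3 for Trp53inp1. Trp53 is not reported here. Replicate numbers were not taken to pair the samples. Of 13 same-numbered pairs 3 had deviations correlating above 0.1, but differently numbered pairs were not examined, so this cannot decide whether the numbers pair them. Alternatives were the replicate block, quantile normalization, median centring, another prior, array weights, brighter probesets, gene means, covariates, subsets, other thresholds, the methods' t-test in Welch form and leaving out samples. The average of control skin 2 and 4 was an alternative chosen after seeing the data. Figures were drawn with matplotlib 3.10.9.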

Additional observations from a re-analysis of the deposited data

Results flagged for a closer look

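Perp was far lower in p53 tumor 6 than in the other p53 tumors, at a log2 signal of 4.002 with the nearest, p53 tumor 3, at 8.76. The gap is 0.573 of the range of the 7 p53 tumors. Of 30 groups of samples examined for such a gap, 1 for each gene in each of control skin, p53 tumors and pRbp53 tumors, this was the only one to stand out. Chance alone flags about 1 in 20 of such groups, so 1 flag among 30 is no more than chance would give. The 7 p53 tumors also differ in histology, which the rule does not take into account. The tumor is the spindle cell carcinoma among the p53 tumors.

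Mdm2 differed between the tumors of the genotypes on its second probeset, by −0.53 (pRbp53 minus p53 tumors, adjusted p = 0.0943, past the threshold of 0.1). This call was lost in 18 of 22 alternatives, with grade as a covariate among them (−0.56, adjusted p = 0.195). Perp differed between histological grades, by −5.02 (undifferentiated or spindle minus poorly differentiated tumors, adjusted p = 0.0206). That call was lost in 6 of 19 alternatives.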

How the results depend on the processing

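Counts of the 10 genes called changed with the fit, and so did the sign of small differences. Tumors against control skin gave 2, and 5 with array weights or the methods' t-test, 4 with gene means or the mean of the genotype means, 1 at an adjusted p of 0.01 and 2 to 4 without 1 sample. p53 tumors gave 3, and 1 with brighter probesets or without control skin 3 and p53 tumor 7, and 1 to 4 without 1 sample. pRbp53 tumors gave 4, and 7 with only the groups compared, 2 without control skin 3 and p53 tumor 7 or with control skin 2 and 4 averaged, and 2 to 4 without 1 sample. Between genotypes the count was 0, and 0 to 1 without 1 sample. Between grades it was 1, 0 with the methods' t-test and 0 to 2 without 1 sample. With genotype as a covariate or in p53 tumors alone it was 1 again, Trp53inp1 being called and Perp not, although the difference of Perp was −4.83 in both. Poorly differentiated tumors gave 2, and 1 with brighter probesets, 0 with the methods' t-test and 1 to 3 without 1 sample. Mixed tumors gave 2, and 1 with brighter probesets, without control skin 3 and p53 tumor 7 or with control skin 2 and 4 averaged, 0 with the methods' t-test and 1 to 3 without 1 sample. Undifferentiated or spindle tumors gave 6, and 4 to 6 without 1 sample. The brighter probesets leave out Eda2r by construction, and the cause of the other changes was not tested. Ccng1 was called against control skin in every fit that left out 1 sample.

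With the replicate block the counts were 2 for all tumors, 2 for p53, 3 for pRbp53, 0 between genotypes, 0 between grades, 2 for poorly differentiated, 5 for undifferentiated or spindle and 1 for mixed tumors. Whether the numbers pair the samples is not known, so nothing is read from it. Counts of probesets called moved further. For tumors against control skin, 5949 became 14405 with array weights, 8987 with the methods' t-test, 3057 at 0.01 and 3744 without control skin 1. For p53 tumors 5382 became 10027 with array weights and 3362 without control skin 1, and for pRbp53 tumors 5585 became 12394 and 3712. Between genotypes 89 became 35 with the block, 288 with array weights, 25 with the methods' t-test, 54 with grade as a covariate, 57 at 0.05 and 47 to 216 without 1 tumor. Between grades 3326 became 0 with the block, 825 with the methods' t-test, 2024 with genotype as a covariate, 827 in p53 tumors alone and 2039 without p53 tumor 4. For poorly differentiated tumors 5264 became 3509 with the block, 8920 with array weights, 1288 with the methods' t-test and 3404 without p53 tumor 4. For undifferentiated or spindle tumors 8798 became 14705 with array weights, and for mixed tumors 3817 became 2299 with the block and 378 with the methods' t-test.

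Over the 10 genes in 8 comparisons, with further probesets for some, 101 differences were recomputed, and 24 of them changed sign in at least 1 alternative, 88 times in 2592 values. None of the 24 was called, and 0 of the 88 reversed values passed (lowest adjusted p = 0.289). Over all tumors against control skin, the second Sesn2 probeset (−0.033) was 0.011 with quantile normalization, 0.015 with median centring, 0.070 with control skin 2 and 4 averaged and −0.21 to 0.088 without 1 sample. In p53 tumors, the second Sesn2 probeset (0.17) was −0.026 with array weights, −0.080 without control skin 3 and p53 tumor 7 and −0.0047 to 0.31 without 1 sample. Sesn2 (−0.093) was 0.040 with gene means and −0.23 to 0.036 without 1 sample. Zmat3 (−0.065) was 0.033 with control skin 2 and 4 averaged and −0.28 to 0.061 without 1 sample. Phlda3 (−0.11) was −0.28 to 0.066 without 1 sample. In pRbp53 tumors, Mdm2 (−0.015) was 0.018 with the block, 0.022 with median centring, 0.043 with gene means, 0.048 with control skin 2 and 4 averaged and −0.089 to 0.062 without 1 sample. Between genotypes, Ccng1 (0.12) was −0.026 with the block and −0.0078 to 0.31 without 1 sample. Eda2r (−0.035) was 0.13 with the block, 0.17 with array weights and −0.32 to 0.24 without 1 sample. Zmat3 (−0.27) was 0.015 with the block and 0.026 in undifferentiated or spindle tumors alone. Cdkn1a (−0.31) was 0.14 with grade as a covariate and 0.16 in undifferentiated or spindle tumors alone. Trp53inp1 (−0.54) was 0.45 with grade as a covariate and 1.34 in undifferentiated or spindle tumors alone. Between grades, Ccng1 (0.046) was −0.18 with the block, −0.30 with genotype as a covariate, −0.30 in p53 tumors alone and −0.34 to 0.60 without 1 sample. Zmat3 (0.10) was −0.075 with the block and −0.14 to 0.40 without 1 sample. Sesn1 (−0.19) was −0.60 to 0.10 without 1 sample. Sesn2 (−0.11) was 0.23 with genotype as a covariate, 0.23 in p53 tumors alone and −0.26 to 0.027 without 1 sample. In poorly differentiated tumors, Trp53inp1 (−0.019) was 0.036 with the block, 0.012 with median centring, 0.10 with gene means, 0.041 without control skin 3 and p53 tumor 7 and −0.20 to 0.22 without 1 sample. Phlda3 (−0.027) was 0.31 with the block, 0.0045 with median centring, 0.25 with array weights, 0.037 without control skin 3 and p53 tumor 7 and −0.51 to 0.53 without 1 sample. Cdkn1a (−0.25) was 0.067 with array weights and −0.72 to 0.064 without 1 sample. In undifferentiated or spindle tumors, Mdm2 (0.11) was −0.040 with array weights. In mixed tumors, Trp53inp1 (0.10) was −0.23 with the block, −0.27 without control skin 3 and p53 tumor 7 and −0.33 to 0.53 without 1 sample. Zmat3 (0.052) was −0.66 with the block, −0.31 with array weights, −0.64 without control skin 3 and p53 tumor 7 and −0.52 to 0.49 without 1 sample. Sesn2 (−0.012) was 0.016 with quantile normalization, 0.038 with median centring and −0.39 to 0.28 without 1 sample. Sesn1 (−0.38) was −1.12 to 0.14 without 1 sample. Phlda3 (−0.46) was −1.11 to 0.28 without 1 sample.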
